A study of Homo sapiens with 18 samples.

Results

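The genes described here are the receptors for fibroblast growth factors and a few of their partners, in 2 established cell lines from endometrial cancer. The set holds FGFR1, FGFR2, FGFR3, FGFR4, FGFRL1, FRS2, FGF2 and FGFBP1, and every bead-array probe whose platform annotation gave one of these symbols was a member. Of the 8 genes, 7 had a probe, with 13 probes in all among the 47231 probes of the array. FRS2, the docking protein that links activated receptors to their signalling cascade, was not matched to a probe and was not analysed here. For a gene with several probes, the probe with the highest mean over the arrays leads the description and the others follow it.

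Biotin-labelled cRNA from Hec-1A, a line from an endometrial adenocarcinoma, and RL95-2, a line from an adenosquamous carcinoma of the endometrium, was hybridised to 18 Illumina arrays. Each line was given control IgG, PDGF-AA, a ligand of platelet-derived growth factor receptor alpha, or PDGF-AA together with 3G3, an antibody that blocks that receptor, with 3 arrays in each of the 6 groups. The label of the PDGF-AA group names the ligand only and does not say whether control IgG was given with it. The sources used here state neither dose nor duration, nor whether the replicates were grown as separate cultures, so p-values measure the spread between these samples, which may be technical.

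Fibroblast growth factors signal through receptor tyrosine kinases, which pair on the cell surface when a ligand and a heparan sulfate chain bind them together. The kinase then phosphorylates the docking protein FRS2, which recruits adaptors that start the RAS and MAP kinase cascade and phosphoinositide 3-kinase signalling. FGFRL1 binds the same ligands but lacks the kinase domain. FGF2 is a ligand stored in the extracellular matrix, and FGFBP1 is a secreted carrier protein that releases such ligands from it. In the endometrium these ligands pass between stroma and epithelium, and FGFR2 is known for activating mutations in endometrial carcinoma.

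All values are the deposited log2 signals, on which 1 unit is a doubling, and the median probe of every array lay at 6.64. A probe was tested when it was above its own array's median on at least 3 arrays, which 32070 probes were. Of the 13 member probes, 9 passed, belonging to FGFR1, FGFR2, FGFR3, FGFR4, FGFRL1 and FGFBP1, while neither FGF2 probe did. The array of Hec-1A under control IgG replicate 1 stood apart, with correlations over all probes down to 0.952 with other arrays of its line. Without it, the lowest correlation within a line was 0.984, and the highest between lines was 0.939. All 7 epithelial marker genes were above the array median on most arrays of each line, with a mean level of 10.39 to 10.58 in Hec-1A and 10.33 to 10.58 in RL95-2. So were 3 of 8 fibroblast and smooth muscle markers and 2 of 5 leukocyte markers in each line. Of 5 endothelial markers, 0 were in Hec-1A and 1 was in RL95-2. In bulk RNA, fewer cells that express a gene and less RNA per cell cannot be told apart.

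The 250 bases upstream of the annotated start are shown for FGFR3, FGFR4 and FGFBP1, the 3 genes with a difference between the lines whose window begins at the outer end of the gene. The sequences are RefSeq's on GRCh38.p14, read 5′ to 3′ on the gene's strand, and capitals mark the GC box GGGCGG or its complement, a motif bound by SP-family factors. The windows are chr4:1793043-1793292 on the plus strand for FGFR3, chr5:177086665-177086914 on the plus strand for FGFR4 and chr4:15938741-15938990 on the minus strand for FGFBP1.
FGFR3: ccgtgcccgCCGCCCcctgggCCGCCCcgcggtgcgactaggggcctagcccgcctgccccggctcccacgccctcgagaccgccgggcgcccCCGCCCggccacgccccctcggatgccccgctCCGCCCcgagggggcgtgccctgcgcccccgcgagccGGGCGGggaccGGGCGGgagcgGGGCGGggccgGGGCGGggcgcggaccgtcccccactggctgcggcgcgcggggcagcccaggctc
FGFR4: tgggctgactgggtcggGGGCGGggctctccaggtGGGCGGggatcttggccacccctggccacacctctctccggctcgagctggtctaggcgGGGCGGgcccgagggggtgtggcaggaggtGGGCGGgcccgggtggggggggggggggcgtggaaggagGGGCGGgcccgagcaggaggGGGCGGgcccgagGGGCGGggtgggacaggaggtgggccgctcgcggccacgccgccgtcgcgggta
FGFBP1: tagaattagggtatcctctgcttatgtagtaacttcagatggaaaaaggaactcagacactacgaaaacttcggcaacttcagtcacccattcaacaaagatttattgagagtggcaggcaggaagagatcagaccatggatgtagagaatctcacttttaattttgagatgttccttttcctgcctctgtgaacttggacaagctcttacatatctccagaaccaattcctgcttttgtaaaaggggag
Both receptor windows shown were dense in G and C, and that of the carrier protein was not. The FGFR3 window had 86.8% G and C, above 99.8% of the 35116 promoter windows of that length, and held 8 GC boxes. The FGFR4 window had 79.6% G and C, above 96.3% of windows, and held 7 GC boxes. The FGFBP1 window had 40.8% G and C, above 14.1% of windows, and held 0 GC boxes, a motif that 42.6% of all windows held on either strand. None of the 3 held the TATA box TATAAA, which 10.7% of windows held, the AP-1 motif TGANTCA, held by 6.57%, or the E-box CACGTG, held by 6.34%, each searched on both strands. FGFR4 has another annotated start, not shown, whose window had 57.2% G and C, above 47.2% of windows. That window held 0 GC boxes and 1 E-box. A match or its absence describes these letters only, and no deposited measurement bears on binding there.

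By their lead probes, FGFR3 and FGFBP1 were higher in RL95-2, and FGFR4 and FGFRL1 were higher in Hec-1A. A second FGFR3 probe did not separate the lines. Under control IgG, 7 of the 9 member probes passed an adjusted p of 0.05 in limma's moderated test with Benjamini-Hochberg adjustment over all probes, where 35.6% of all tested probes did. Under PDGF-AA the count was again 7 of 9, against 28.0% of all probes, and under PDGF-AA + 3G3 it was 7 of 9, against 28.6%. In each comparison 4 of these probes were higher in Hec-1A and 3 were lower, while 18.1%, 14.6% and 14.7% of all probes were called higher and 17.5%, 13.4% and 13.9% lower in that order. These counts are descriptions, since the members were chosen with earlier results of these data known. FGFR2, among the probes called lower, had also passed the filter on low signal through RL95-2 alone, the line where it was higher. The share of all probes called also depended on the filter. Raised to each array's 75th percentile, which keeps brighter probes, it left 66.4%, 53.1% and 54.0% of probes called in the 3 comparisons. The 7 probes called were the same under all 3 treatments, which held for 19.8% of all probes. The values of the lines did not overlap over 9 arrays against 9 for the same 7 probes, as for 20.2% of all probes. The 3 comparisons used different arrays but a shared estimate of the spread.

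**Figure D1:**
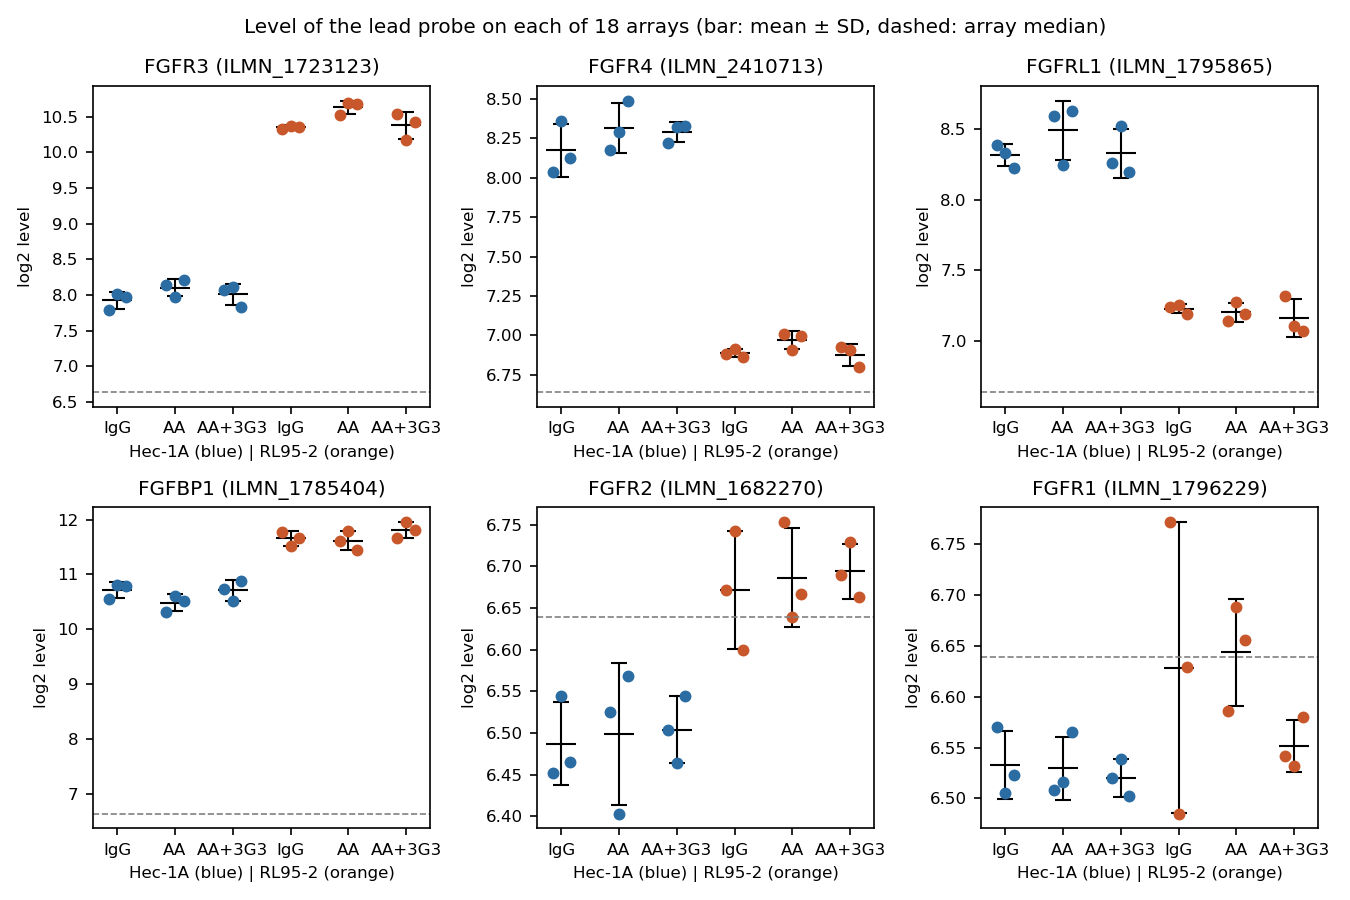
Deposited log2 signal (y axis, scaled separately for each gene) of the lead probe of the 6 tested genes in the 6 groups (x axis), with a point for each of the 18 arrays and bars for the group mean ± SD (n = 3). FGFR3 and FGFBP1 sit higher in RL95-2 (orange), FGFR4 and FGFRL1 sit higher in Hec-1A (blue), and FGFR1 and FGFR2 lie near the array median of 6.64 (dashed line).

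FGFR3, a receptor kinase known from skeletal growth and from bladder cancer, differed most between the lines of all the member probes. In Hec-1A its lead probe measured 7.793, 8.013 and 7.974 under control IgG, 8.139, 7.971 and 8.205 under PDGF-AA, and 8.071, 8.120 and 7.840 under PDGF-AA + 3G3. In RL95-2 it measured 10.326, 10.375 and 10.360 under control IgG, 10.518, 10.691 and 10.679 under PDGF-AA, and 10.539, 10.174 and 10.427 under PDGF-AA + 3G3. Every RL95-2 array was thus more than 1 log2 unit above every Hec-1A array. The group means under control IgG were 7.93 ± 0.12 (SD, n = 3) in Hec-1A and 10.35 ± 0.03 (SD, n = 3) in RL95-2. The difference, Hec-1A minus RL95-2, was -2.43 (SE 0.097, limma adjusted p = 4.86e-12), which is 5.38-fold lower signal in Hec-1A. It was -2.52 under PDGF-AA (limma adjusted p = 3.15e-12) and -2.37 under PDGF-AA + 3G3 (limma adjusted p = 7.39e-12).

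A second FGFR3 probe, annotated to another RefSeq transcript (NM_000142, where the lead probe was annotated to NM_022965), did not separate the lines. It was dim, close above the array median of 6.64. The values ranged from 6.738 to 7.150 in Hec-1A and from 6.776 to 6.992 in RL95-2, so the lines overlapped. The differences of this probe were 0.16, 0.07 and -0.02 under control IgG, PDGF-AA and PDGF-AA + 3G3, with limma adjusted p of 0.18, 0.65 and 0.915. With no normalization between arrays the first of these was 0.28 (limma adjusted p = 0.0384). The probes of FGFR3 therefore disagreed, and levels of different probes are not compared with each other.

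FGFR4, a receptor kinase known for its response to the circulating ligand FGF19 in liver, was higher in Hec-1A. Its lead probe measured 8.038, 8.359 and 8.125 in Hec-1A under control IgG, 8.174, 8.289 and 8.490 under PDGF-AA, and 8.219, 8.325 and 8.331 under PDGF-AA + 3G3. In RL95-2 it measured 6.880, 6.913 and 6.863 under control IgG, 7.008, 6.908 and 6.999 under PDGF-AA, and 6.924, 6.909 and 6.797 under PDGF-AA + 3G3. All RL95-2 arrays were above the array median, the highest at 7.008, and no Hec-1A array overlapped them. The difference was 1.29 under control IgG (SE 0.083, limma adjusted p = 2.37e-09), or 2.44-fold. It was 1.35 under PDGF-AA and 1.42 under PDGF-AA + 3G3, with limma adjusted p of 1.5e-09 and 7.89e-10. With a normexp background correction at an offset of 16 the difference under control IgG was 2.10, since subtraction widens the folds of dim probes.

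The second FGFR4 probe was also higher in Hec-1A, from 7.200 to 7.566 in Hec-1A and from 6.576 to 6.801 in RL95-2, where 5 of 9 arrays were above the median. Its differences were 0.59, 0.79 and 0.77 in the same order of treatments, with limma adjusted p of 8.7e-06, 3.52e-07 and 4.9e-07. The third FGFR4 probe, annotated to the transcript NM_022963, ranged from 6.319 to 6.630 and was above the median on 0 of 18 arrays, so it was not tested.

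FGFRL1, the receptor without a kinase domain, was also higher in Hec-1A by both of its probes. The lead probe measured 8.386, 8.333 and 8.228 in Hec-1A under control IgG, 8.594, 8.247 and 8.629 under PDGF-AA, and 8.263, 8.525 and 8.195 under PDGF-AA + 3G3. In RL95-2 it measured 7.243, 7.253 and 7.194, then 7.140, 7.278 and 7.194, then 7.316, 7.104 and 7.072 in that order. The lines lay apart in all 3 treatments. The differences were 1.09 (limma adjusted p = 2.36e-07), 1.29 (3.28e-08) and 1.16 (1.14e-07), which are 2.12-fold, 2.44-fold and 2.24-fold higher signals in Hec-1A. The second probe ranged from 6.840 to 7.385 in Hec-1A and from 6.617 to 6.817 in RL95-2, with differences of 0.33, 0.44 and 0.42 and limma adjusted p of 0.031, 0.00596 and 0.00838. Its call under control IgG was lost when Hec-1A replicate 2 (limma adjusted p = 0.135), RL95-2 replicate 2 (0.0622) or RL95-2 replicate 3 (0.108) of that treatment was left out, and its call under PDGF-AA + 3G3 when Hec-1A replicate 1 of that treatment was (0.0522).

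FGFR2, whose epithelial splice form answers to stromal ligands, had 1 probe, which lay near or below the array median in both lines. It ranged from 6.403 to 6.568 in Hec-1A, above the array median on 0 of 9 arrays, and from 6.600 to 6.753 in RL95-2, above it on 7 of 9. The RL95-2 arrays were all above the Hec-1A arrays, by little. The differences were -0.18, -0.19 and -0.19 with limma adjusted p of 0.0155, 0.0174 and 0.0159, and with Hec-1A raised to the array median they were at least 1.02-fold, 1.03-fold and 1.04-fold. This probe entered the test through its RL95-2 arrays alone. None of its calls held under every alternative. Under control IgG the call was lost without Hec-1A replicate 1 (limma adjusted p = 0.0608) or replicate 3 (0.0501) or RL95-2 replicate 2 (0.0775) of that treatment, with the 6 arrays of that treatment alone (0.0662), and with no normalization between arrays (-0.08, adjusted p = 0.452). Under PDGF-AA it was lost without Hec-1A replicate 2 (0.0978) or RL95-2 replicate 1 (0.0874), with the 6 arrays alone (0.0682) and with no normalization (0.113). Under PDGF-AA + 3G3 it was lost without Hec-1A replicate 2 (0.0641) or RL95-2 replicate 2 (0.0629) and with no normalization (0.133). With a normexp correction at an offset of 16 the difference under control IgG was -0.55.

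FGFR1, a receptor kinase widely expressed in mesenchymal cells, was likewise near the median by both probes. Its lead probe ranged from 6.502 to 6.570 in Hec-1A, above the median on 0 of 9 arrays, and from 6.485 to 6.771 in RL95-2, above it on 3 of 9. The lines overlapped, and the differences of -0.10, -0.11 and -0.03 did not pass, with limma adjusted p of 0.257, 0.193 and 0.786. Without RL95-2 control IgG replicate 2 the first of these was -0.17 with a limma adjusted p of 0.0269. That array held the lowest RL95-2 value, 6.485. The probe had entered the test through RL95-2 alone, the line where its mean was higher. The second FGFR1 probe, from 6.410 to 6.643, was above the median on 1 of 18 arrays and was not tested.

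The ligand FGF2 was not seen above the array median in either line with any regularity. One probe ranged from 6.462 to 6.692 over the 18 arrays and was above the median on 2, and the other ranged from 6.390 to 6.718 and was above it on 1. Neither was tested, and a signal at this level does not show that the transcript was absent.

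**Figure D2:**
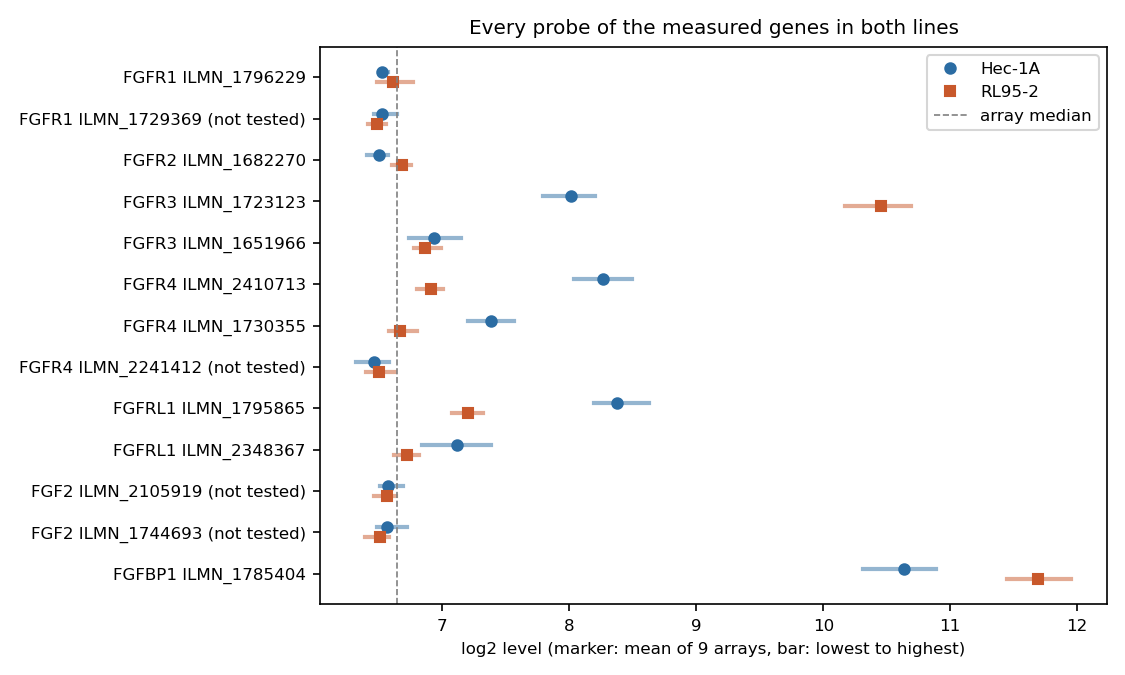
Log2 signal (x axis) of all 13 member probes (y axis, by gene and probe), with a point at the mean and a line from the lowest to the highest of the 9 arrays of Hec-1A (blue circles) and of RL95-2 (orange squares). The ranges of the lines are apart for 7 probes, and both FGF2 probes, the second FGFR1 probe and the third FGFR4 probe lie around or below the array median of 6.64 (dashed line).

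FGFBP1, the carrier protein, was bright in both lines and higher in RL95-2. It measured 10.547, 10.815 and 10.790 in Hec-1A under control IgG, 10.309, 10.615 and 10.520 under PDGF-AA, and 10.734, 10.511 and 10.887 under PDGF-AA + 3G3. In RL95-2 it measured 11.775, 11.518 and 11.670 under control IgG, 11.605, 11.785 and 11.445 under PDGF-AA, and 11.668, 11.953 and 11.807 under PDGF-AA + 3G3. The lowest RL95-2 array was above the highest Hec-1A array. The differences were -0.94 (SE 0.12, limma adjusted p = 7.86e-06), -1.13 (1.03e-06) and -1.10 (1.44e-06), which are 1.91-fold, 2.19-fold and 2.14-fold lower signals in Hec-1A.

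**Figure D3:**
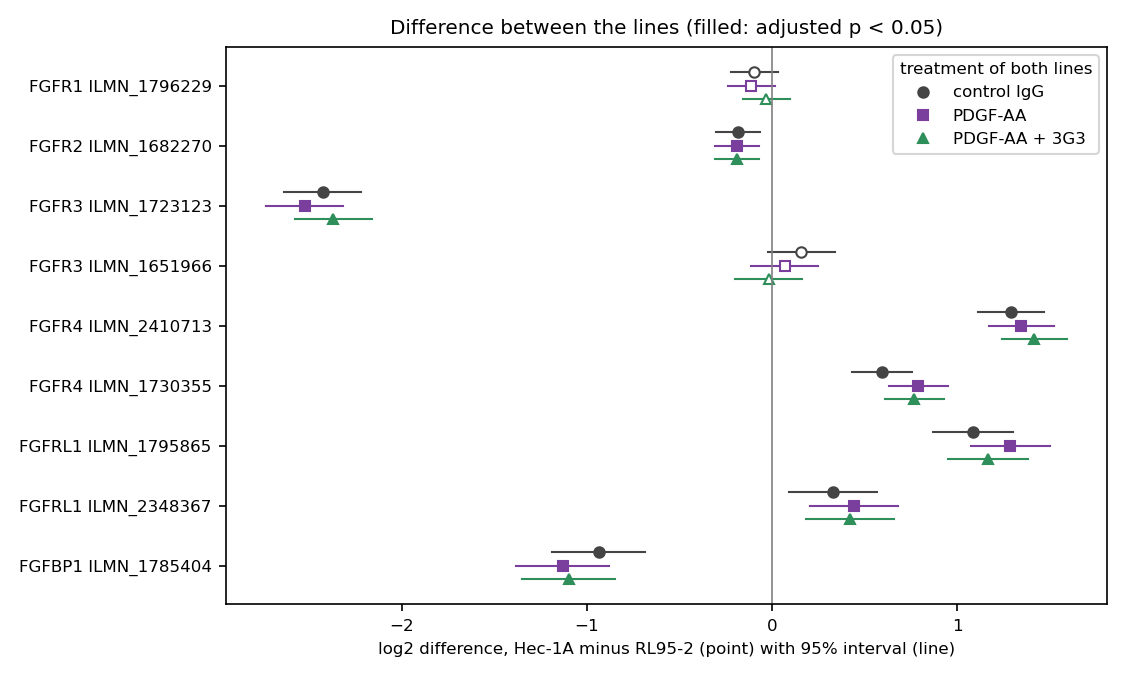
Log2 difference between the lines, Hec-1A minus RL95-2 (x axis), for the 9 tested member probes (y axis) under control IgG, PDGF-AA and PDGF-AA + 3G3, with points at the fitted difference, lines for its 95% interval and filled points where the probe was called. The lead FGFR3 probe lies between -2.52 and -2.37, the FGFR4 and FGFRL1 probes lie above 0, and FGFBP1 lies between -1.13 and -0.94.

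Set against all genes by their lead probe, 5 of the 6 tested genes were called in each comparison of the lines, FGFR1 being the exception. Over all 15322 genes, 46.2% were called under control IgG, 37.0% under PDGF-AA and 37.6% under PDGF-AA + 3G3. The member count is again a description, and it includes FGFR2, which entered the test through RL95-2 alone. Calls with a difference of at least 1 log2 unit made up 7.84%, 5.44% and 5.42% of all probes. The lead probes of FGFR3, FGFR4 and FGFRL1 were in that class under each treatment, and FGFBP1 under PDGF-AA and PDGF-AA + 3G3 but not under control IgG. The 2 lines thus differed at a large share of the genes, of which these were some. Normalization between arrays moved the balance of calls over all probes. Without it, 68.1% of the calls under control IgG and 38.4% of those under PDGF-AA were higher in Hec-1A, with a median shift over all probes of 0.109 under control IgG, while the lead probes of FGFR3, FGFR4, FGFRL1 and FGFBP1 kept their direction and call under control IgG.

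Within a line, no member probe was called after PDGF-AA or 3G3. In Hec-1A, 0 of 9 probes passed in limma for PDGF-AA against control IgG, for PDGF-AA + 3G3 against PDGF-AA or for PDGF-AA + 3G3 against control IgG, where 0%, 0% and 0.00312% of all probes passed. In RL95-2 the counts were again 0 of 9, where 0.00624%, 0.00312% and 0% of all probes passed. At an unadjusted p under 0.05, 0 of 9 member probes were reached in Hec-1A in each of these comparisons, and in RL95-2 1 was for PDGF-AA, 1 for the addition of 3G3 and 0 for both agents against control IgG. Over all probes, 6736, 1308 and 6565 had an unadjusted p under 0.05 in Hec-1A, and 1822, 1012 and 3017 in RL95-2. The smallest limma adjusted p of a member was 0.268 for PDGF-AA in Hec-1A and 0.639 or above in RL95-2.

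The member reaching an unadjusted p under 0.05 was FGFR3 in RL95-2, by its lead probe. Its group means were 10.35 ± 0.03 (SD, n = 3) under control IgG, 10.63 ± 0.10 (SD, n = 3) under PDGF-AA and 10.38 ± 0.19 (SD, n = 3) under PDGF-AA + 3G3. The PDGF-AA + 3G3 arrays reached into the range of the PDGF-AA arrays, with 1 at 10.539. The PDGF-AA difference was 0.28 (95% interval 0.07 to 0.48, limma adjusted p = 0.807), and with 3G3 added the difference was -0.25 (95% interval -0.46 to -0.04, limma adjusted p = 1). These comparisons share the PDGF-AA arrays, and neither held after adjustment. The second, dim FGFR3 probe differed in RL95-2 by 0.08 for PDGF-AA (limma adjusted p = 0.932). With 3G3 added it differed by 0.05 (limma unadjusted p = 0.562).

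For FGFBP1 in Hec-1A, the difference for PDGF-AA was -0.24 (95% interval -0.49 to 0.01, limma adjusted p = 0.268) and that for 3G3 added to PDGF-AA was 0.23 (limma adjusted p = 0.999), again sharing the PDGF-AA arrays. Over the 9 probes and the 6 comparisons within a line, the 95% intervals lay between -0.49 and 0.48. The difference between the lines in the PDGF-AA effect was called for 0 of 9 probes, against 0.00312% of all probes, with a smallest limma adjusted p of 0.319, and 0 of 9 had an unadjusted p under 0.05. For the 3G3 effect 0 of 9 were called, against 0% of all probes, with adjusted p of 1, and 0 of 9 had an unadjusted p under 0.05.

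Weighting arrays by their quality ended this for PDGF-AA in Hec-1A. With array weights 3 member probes were called, FGFR4 at 0.23 (limma adjusted p = 0.0273), FGFRL1 at 0.29 (0.017) and FGFBP1 at -0.29 (0.031), but 4701 probes, or 14.7% of all, were then called in that comparison. On the control array of Hec-1A that stood apart, replicate 1, FGFR4, at 8.038, had its lowest value in the line, while FGFRL1, at 8.386, and FGFBP1, at 10.547, lay within the range of the other arrays. Leaving out each array in turn gave 0 called member probes in this comparison, but the background moved. Without Hec-1A control IgG replicate 2, 3684 probes, or 11.5% of all, were called in place of 0, and without Hec-1A PDGF-AA replicate 2, 13 were.

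**Figure D4:**
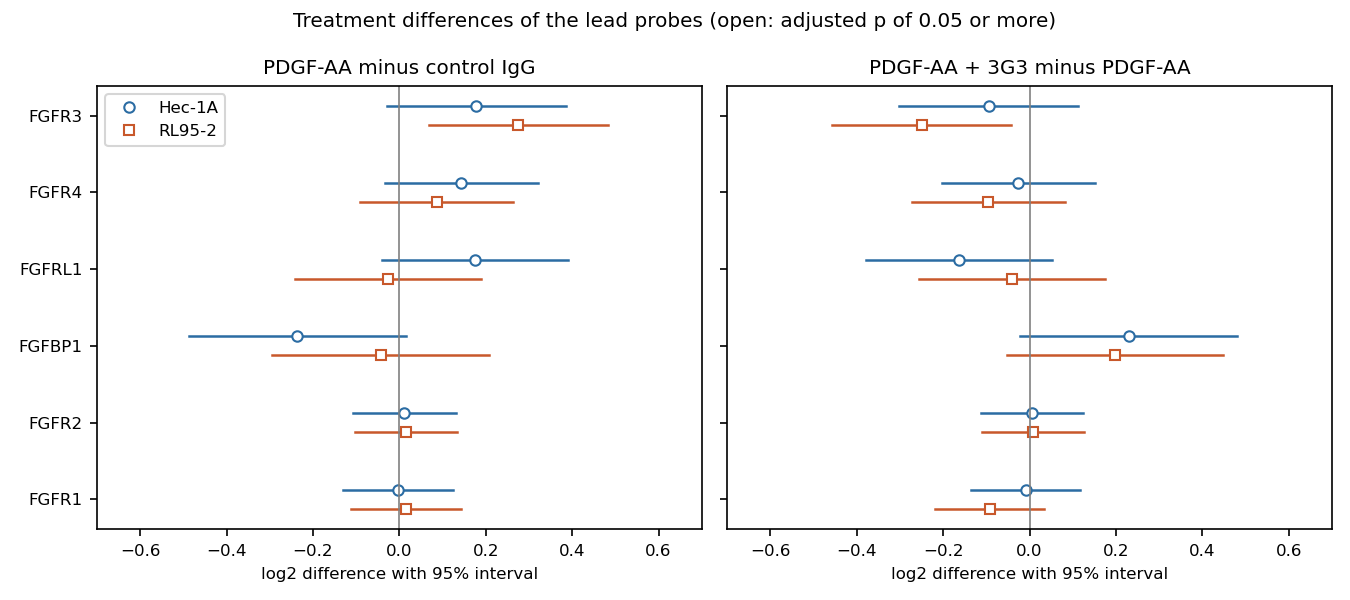
Log2 difference within each line (x axis) of the lead probe of the 6 tested genes (y axis) for PDGF-AA against control IgG (left) and for PDGF-AA + 3G3 against PDGF-AA (right), with 95% intervals and open symbols where the probe was not called. The lead FGFR3 probe in RL95-2, at 0.28 for PDGF-AA and at -0.25 for 3G3, has the 2 intervals that leave out 0.

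The genes around the receptors were counted between the lines under control IgG by their lead probe, against the 46.2% of genes called in all, 23.0% higher in Hec-1A and 23.2% lower. Of 21 further ligand genes listed, 13 were tested, 1 was higher in Hec-1A, 1 was lower and 11 did not pass, with a median difference of -0.002. FGF18, a ligand of FGFR3 in cartilage, was the one that was higher, at 7.23 in Hec-1A and 6.52 in RL95-2, at least 1.5-fold (limma adjusted p = 1.86e-08). FGF11, an intracellular family member, was the lower one, at least 1.06-fold (limma adjusted p = 0.0151), and it differed by -0.05 under PDGF-AA (adjusted p = 0.589). FGF18 and FGF11 each entered the test through the line where it was higher, being above the array median on 0 of 9 arrays of the other. Of 14 tested co-receptors and surface proteoglycans, 2 were higher, 4 lower and 8 did not pass, with a median of -0.01. FLRT3, a membrane protein that binds FGF receptors, was 1.64 higher in Hec-1A (limma adjusted p = 2.55e-10), and SDC1, a heparan sulfate proteoglycan of epithelia, was at 10.02 in Hec-1A and 11.39 in RL95-2 (limma adjusted p = 8.79e-07).

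Of 14 enzymes that build or trim heparan sulfate, the chain that holds ligand and receptor together, 4 were higher in Hec-1A, 7 were lower and 3 did not pass, with a median of -0.31, while the median over all genes was -0.0003. HS3ST3A1, a 3-O-sulfotransferase, was at 6.71 in Hec-1A and 9.36 in RL95-2 (limma adjusted p = 4.17e-13). HS6ST2, a 6-O-sulfotransferase, was at 6.54 and 8.92, at least 4.87-fold lower in Hec-1A (limma adjusted p = 5.81e-15), and it entered the test through RL95-2, being above the array median on 0 of 9 Hec-1A arrays. SULF2, an enzyme that removes 6-O-sulfate outside the cell, was at 6.78 and 8.59 (limma adjusted p = 3.45e-11), and HPSE, which cleaves the chain, was at 7.33 and 8.84 (limma adjusted p = 1.38e-09). These 4 were named for having the smallest p of the list, and all were higher in RL95-2. They do not stand for the list, since 4 other enzymes were called higher in Hec-1A.

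Of 16 tested signalling genes downstream of FGF receptors, 3 were higher, 6 lower and 7 did not pass, with a median of 0.04, and 6 others on that list were not analysed here. MAP2K1, a MAP kinase kinase, was 1.07 higher in Hec-1A under control IgG (limma adjusted p = 1.16e-05), and higher by 0.81 and 0.91 under PDGF-AA and PDGF-AA + 3G3. STAT3, a transcription factor, differed by -0.57, -0.48 and -0.59 in that order and was called in each. MAPK3, a MAP kinase, differed by -0.84 under control IgG (limma adjusted p = 0.00113), but by -0.06 and -0.12 under the other treatments (adjusted p = 0.869 and 0.7). CBL, a ubiquitin ligase that marks receptors for degradation, was 0.94 higher under control IgG (limma adjusted p = 9.05e-05), with 0.34 and 0.27 under the others (adjusted p = 0.117 and 0.215). Of 17 feedback regulators and target genes, 11 were higher in Hec-1A, 4 lower and 2 did not pass, with a median of 0.55. Of 6 splicing factors that act on FGFR2 exons, 4 were higher, 1 was lower and 1 did not pass, with a median of 0.47. RBM47, an RNA-binding protein of epithelia, was 1.21 higher in Hec-1A (limma adjusted p = 4.74e-09), and by 1.21 and 1.2 under PDGF-AA and PDGF-AA + 3G3. ESRP1, which favours the epithelial splice form of FGFR2, was 0.46 higher under control IgG (limma adjusted p = 8.03e-05), with 0.19 and 0.04 under the others (adjusted p = 0.072 and 0.787). MBNL1 and PTBP1, both splicing regulators, were 0.75 and 0.48 higher under control IgG (limma adjusted p = 0.01 and 0.0116), while ESRP2 differed by 0.10 (adjusted p = 0.28). Some of these sizes leaned on Hec-1A control IgG replicate 1, the array that stood apart. Without it MBNL1 and PTBP1 were 0.37 and 0.39 higher (limma adjusted p = 0.00515 and 0.0487). MAPK3 then differed by -0.61, CBL by 0.69, MAP2K1 by 0.88 and ESRP1 by 0.38, each still called. The lists were not tested as sets. For the difference between the lines in the PDGF-AA effect, 0 listed genes were called, against 0.00312% of all probes. For the 3G3 effect 0 were called, against 0% of all probes. A change of the line difference with PDGF-AA or added 3G3 was thus not called for MAPK3, CBL, ESRP1 or FGF11. Such a change from control IgG to both agents was not tested.

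Under the other treatments fewer genes were called in all, 18.8% higher and 18.2% lower with PDGF-AA and 19.0% higher and 18.6% lower with PDGF-AA + 3G3. Under PDGF-AA the counts of higher and lower genes in Hec-1A were 1 and 0 for ligands, 2 and 3 for co-receptors, 3 and 7 for heparan sulfate enzymes, 4 and 1 for signalling genes, 10 and 1 for feedback genes and 1 and 0 for splicing factors. With PDGF-AA + 3G3 they were 1 and 1, 2 and 3, 2 and 7, 4 and 1, 10 and 1, and 2 and 0 in the same order. The counts depended on the Hec-1A control IgG array that stood apart, whose spread enters every comparison through the shared estimate. Without it, a setting added with the data in view, the control IgG counts were 1 and 1, 2 and 4, 4 and 8, 3 and 5, 11 and 3, and 4 and 0, against 43.0% of genes. The PDGF-AA counts were then 1 and 0, 2 and 4, 3 and 8, 5 and 2, 12 and 1, and 4 and 0, against 42.1% of genes, and the PDGF-AA + 3G3 counts were 1 and 1, 2 and 3, 2 and 8, 5 and 2, 11 and 1, and 3 and 0, against 42.2%. The count of splicing factors called higher under PDGF-AA thus went from 1 to 4 without that array. Differences between treatments in these counts were not tested.

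**Figure D5:**
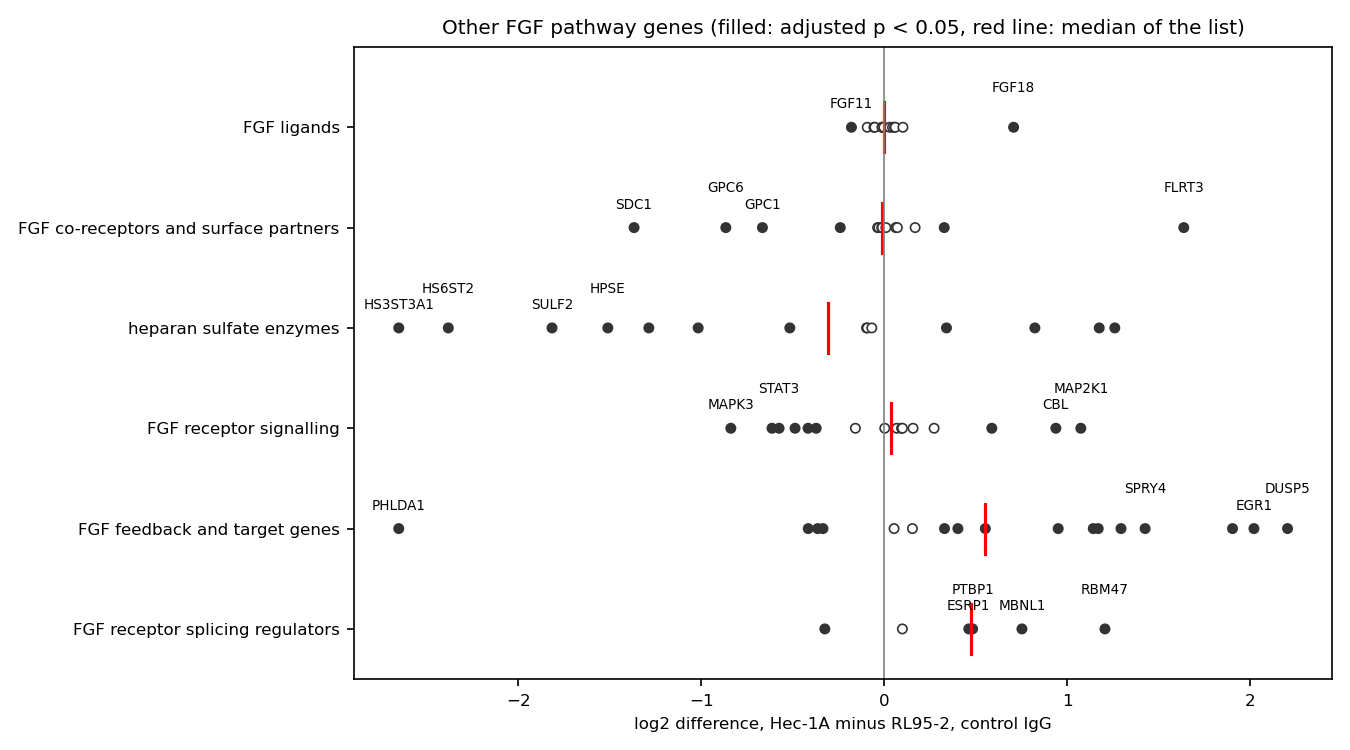
Log2 difference between the lines under control IgG, Hec-1A minus RL95-2 (x axis), for each tested gene of 6 lists around the FGF receptors (y axis), filled where the limma adjusted p passed, with a line at each list's median. The heparan sulfate enzymes have a median of -0.31 and the feedback and target genes one of 0.55.

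The genes whose levels were most like each member over the 18 arrays were named by Pearson correlation with the lead probe among 21528 tested probes with a symbol, as a description, since arrays share a line and the lines form separate clusters. For FGFR3 they were KLHL35 (r = 0.997) and ID3 (r = 0.996), and 1231 probes reached 0.95. For FGFR4 they were DBNDD1 (r = 0.995) and SMOX (r = 0.995), with 789 probes at that level. FGFRL1 was most like MYO1D (r = 0.992) and OSBPL7 (r = 0.991), and FGFBP1 was most like OSTC (r = 0.977) and ECI2 (r = 0.976). For the dim probes of FGFR2 and FGFR1 the highest values were 0.949, with SNORA57, and 0.875, with MYH9, and 0 probes reached 0.95.

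With the group means subtracted, which removes the lines and treatments and leaves the differences between replicate arrays, other genes led. They were ECSIT (r = 0.951) and MZF1 (r = 0.944) for FGFR3, TNFSF9 (r = 0.846) and FCGR3B (r = 0.841) for FGFR4, LST1 (r = 0.928) and FAM200A (r = 0.895) for FGFRL1, and GLRX (r = 0.922) and MRI1 (r = 0.848) for FGFBP1. For FGFR2, SNORA57 led again (r = 0.90). Apart from SNORA57, none of the genes named for a member led by both measures. The probes of FCGR3B, LST1 and MRI1 were dim. Their means in Hec-1A and RL95-2 were 6.60 and 6.58, 6.61 and 6.61, and 6.55 and 6.57, each under 6.64. A correlation with so low a signal need not reflect expression of the gene named. Whether the r values after subtraction exceeded those of noise was not tested.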

How the data were processed

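Total RNA of 2 cell lines was measured on 18 single-colour Illumina arrays, which were grouped by line and treatment from the labels. The authors deposited a table of signal intensity, exported with BeadStudio per the submitters' processing notes, without its version or a genome build. The authors also deposited log2 values, which were used here and differed by at most 0.0438 from a quantile normalization of the log2 intensity. No background was subtracted, so folds of dim probes are understated. The number of arrays limits the precision.

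Probes above their array's median on at least 3 arrays were kept. A model of the 6 group means was fitted to all 18 arrays in R 4.3.3 using limma 3.58.1 (degrees of freedom 12 residual, 3.61 prior) for 11 comparisons, each two-sided and adjusted over all 32070 tested probes. A group mean at or below the array median gave a fold with its arrays raised to that median, as "at least". The platform annotation gave 1 symbol to 30113 of 47231 probes, several to 8 and none to 17110; Entrez IDs matched 30074 to RefSeq genes. The model was tested on simulated data. Figures used matplotlib 3.10.9 in Python 3.11.15.

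The members and lists were chosen with earlier results of these data known. Named genes were every member probe, from each list up to 4 called members of smallest p between the lines under control IgG with ESRP1 and ESRP2 added, and the 2 genes most like each member. Not all of these are in the text. Alternatives were other normalizations, normexp background correction, other filters, robust moderation, array weights, fewer arrays and a replicate block. Same-numbered replicates did not deviate together throughout any pair of groups, since 0 of 15 pairs had every correlation over 0.1. Single correlations ranged from -0.69 to 0.52, so a deviation shared by some replicates is not excluded.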

Additional observations from a re-analysis of the deposited data

How the results depend on the processing

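Counts of member probes called between the lines stayed between 5 and 7 under the alternatives, and leaving out each array gave 6 to 7. The number of member probes tested changed with the filter, so a lower count can also reflect probes that were not tested. For PDGF-AA against control IgG in Hec-1A, array weights gave 3 called member probes in place of 0, and the cause was not tested. Under control IgG the difference between the lines ranged over the alternatives from -2.85 to -2.28 for FGFR3, 1.2 to 2.10 for FGFR4, 1.01 to 1.61 for FGFRL1 and -1.01 to -0.80 for FGFBP1. The replicate block left 7 member probes called between the lines under control IgG, and changed no call of a member. Over all probes, calls for PDGF-AA in Hec-1A rose from 0 to 4701 with array weights and to 3684 without Hec-1A control IgG replicate 2. Calls for PDGF-AA + 3G3 against control IgG in Hec-1A rose from 1 to 3889 without that array and to 3755 with array weights. They rose to 928 with the filter at the 75th percentile and to 257 with robust moderation and an intensity trend. Calls for both agents in RL95-2 rose from 0 to 37 with array weights. Those for the difference between the lines in the PDGF-AA effect rose from 1 to 2646 with array weights and to 2308 without that array, and in the 3G3 effect from 0 to 1. Calls for PDGF-AA in RL95-2 ranged from 0 to 5 against 2, and for added 3G3 from 0 to 2 against 1. With no normalization, calls between the lines fell from 8980 to 5778 under PDGF-AA and from 9174 to 5728 under PDGF-AA + 3G3. Signal close to the array median limits what can be seen of FGFR1, FGFR2 and FGF2.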
